A study of Rattus norvegicus with 8 samples.

Results

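The epidermal growth factor (EGF) family was examined in rat colon as 9 genes: the ligands Areg, Ereg, Hbegf, Egf, Tgfa and Btc and the receptors Egfr, Erbb2 and Erbb3. Members were the probes whose gene name on the array equals 1 of these symbols, which gave 13 probes of 30367 for 9 of 26198 gene names. RNA came from female Wistar rats of 14 weeks after 8 weeks of diet, and was read on 8 one-colour Agilent arrays, 2 in each of 4 groups. ALA colitis rats ate a diet enriched with α-linolenic acid, a plant n-3 fatty acid, fish oil colitis rats a diet with long-chain n-3 fatty acids, and n-6 colitis rats sunflower oil. All 3 colitis groups were given dextran sulfate sodium (DSS) at 5% over 7 days, which damages the colon epithelium, with 10 rats a group. The healthy group of 6 rats ate sunflower oil and had no DSS. ALA and fish oil rats thus differ from healthy rats in both diet and DSS, and the n-6 rats in DSS alone.

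RNA of 6 rats was pooled, so both healthy arrays hold the same 6 rats and the arrays of a colitis group can share animals. The p-values therefore measure only the spread between arrays, which may be technical, and 2 arrays a group limit the precision. Each group also lay at its own place on a single slide, and slide position and group cannot be told apart. Over the genes tested, only fish oil replicate 1 correlated best with the other array of its group. Every other array correlated best with an array of a different group, so the arrays did not sort by group. Array brightness varied: the 75th percentile of signal ran from 115.5 on fish oil replicate 1 to 439.6 on healthy replicate 2, and probes well above background from 54% on fish oil replicate 1 to 70.1% on ALA replicate 1. All 10 epithelial marker genes were well above background on all 8 arrays. In RNA from whole tissue, fewer cells of a type and less RNA per cell cannot be told apart. Summed signals of marker lists moved between groups. Red cell markers summed to 267 and 177 times the 75th percentile on the n-6 arrays, against 6.98 to 14.8 on the 6 others. Fibroblast markers summed to 187 and 117 on the n-6 arrays, against 49.9 to 80.9 on the others. Macrophage markers summed to 45.7 and 48.7 in n-6 colitis, against 20.8 and 21.8 in healthy colon.

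EGF family ligands are made as membrane-bound precursors. Proteases of the ADAM group cut them free, and the released ligand pairs ErbB receptors, which signal through RAS and ERK. In the gut, this pathway is known for driving epithelial spread and division after injury. ERBB2 has no known ligand of its own and acts as a partner, and ERBB3, which binds neuregulins, has little kinase activity and also signals through partners.

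The probes shown here are among those read to lie in coding sequence, where the ligand or receptor itself is encoded. A probe not shown can also reach into coding sequence. They are given 5′ to 3′ as on the array, with positions on rat build rn4. That placing is background knowledge: the array files annotate neither exons nor UTRs. The Ereg probe, which carries the widest difference described below, maps to chr14:18521343-18522341 on the minus strand. Its 60 bases span 999 bases of genome, so it crosses an intron, and it covers only some of the membrane-spanning part of the precursor. The dimmer Tgfa probe, at chr4:120432206-120432265 on the plus strand, also covers a membrane-spanning part. The dimmer Egf probe is at chr2:227123727-227123786 on the minus strand. The Btc probe is at chr14:18233596-18233655 on the plus strand. The dimmest of the 3 Erbb2 probes is at chr10:87238370-87238429 on the plus strand, and reaches into the end of the membrane-spanning part of the receptor.
Ereg probe: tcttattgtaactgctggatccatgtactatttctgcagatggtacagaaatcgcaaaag
Tgfa probe, dimmer: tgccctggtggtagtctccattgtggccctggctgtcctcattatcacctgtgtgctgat
Egf probe, dimmer: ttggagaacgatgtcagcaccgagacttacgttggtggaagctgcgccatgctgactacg
Btc probe: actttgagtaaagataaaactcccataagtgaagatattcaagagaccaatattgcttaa
Erbb2 probe, dimmest: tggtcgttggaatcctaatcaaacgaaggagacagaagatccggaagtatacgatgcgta

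The remaining 8 probes map to single stretches of rn4. Areg was read at chr14:18466438-18466497 and Egf by its brighter probe at chr2:227104446-227104505. Hbegf was read at chr18:29143627-29143686 and Egfr at chr14:97788051-97788110. Erbb3 was read at chr7:1858095-1858154 and Tgfa by its brighter probe at chr4:120437505-120437564. The brighter Erbb2 probes are at chr10:87242482-87242541 and chr10:87242734-87242793. The brightest probe stands for each gene below. A level is the log2 of its signal over the 75th percentile of the array.

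None of the family passed the test in any of 7 comparisons. Btc did not pass the filter on dim probes, and of the other 8 members 0 reached an adjusted p of 0.05 (limma, Benjamini-Hochberg over 18175 genes). The nearest were Ereg, Egfr and Egf in n-6 colitis. Epiregulin (Ereg) and the receptor Egfr read higher on both n-6 arrays than on both healthy arrays, and Egf read lower. At an unadjusted p under 0.05 there were 3 members in n-6 colitis against healthy colon, where 14.3% of all genes also had one. Egf, among them, passed the filter on dim probes only through the healthy and ALA groups, where its mean was highest. Its place in this count and the next is therefore no support. With only probes well above background on all 8 arrays, 2 of 7 members had one by limma, against 2243 of 13831 genes. The n-6 and healthy arrays were fully apart for 7 of the 8 members, 4 higher and 3 lower in n-6 colitis, against 45.5% of all genes in either direction. The median difference was -0.11 over the 8 members and 0.026 over all genes. At the adjusted threshold, 0.0385% of genes passed in that comparison.

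**Figure D1:**
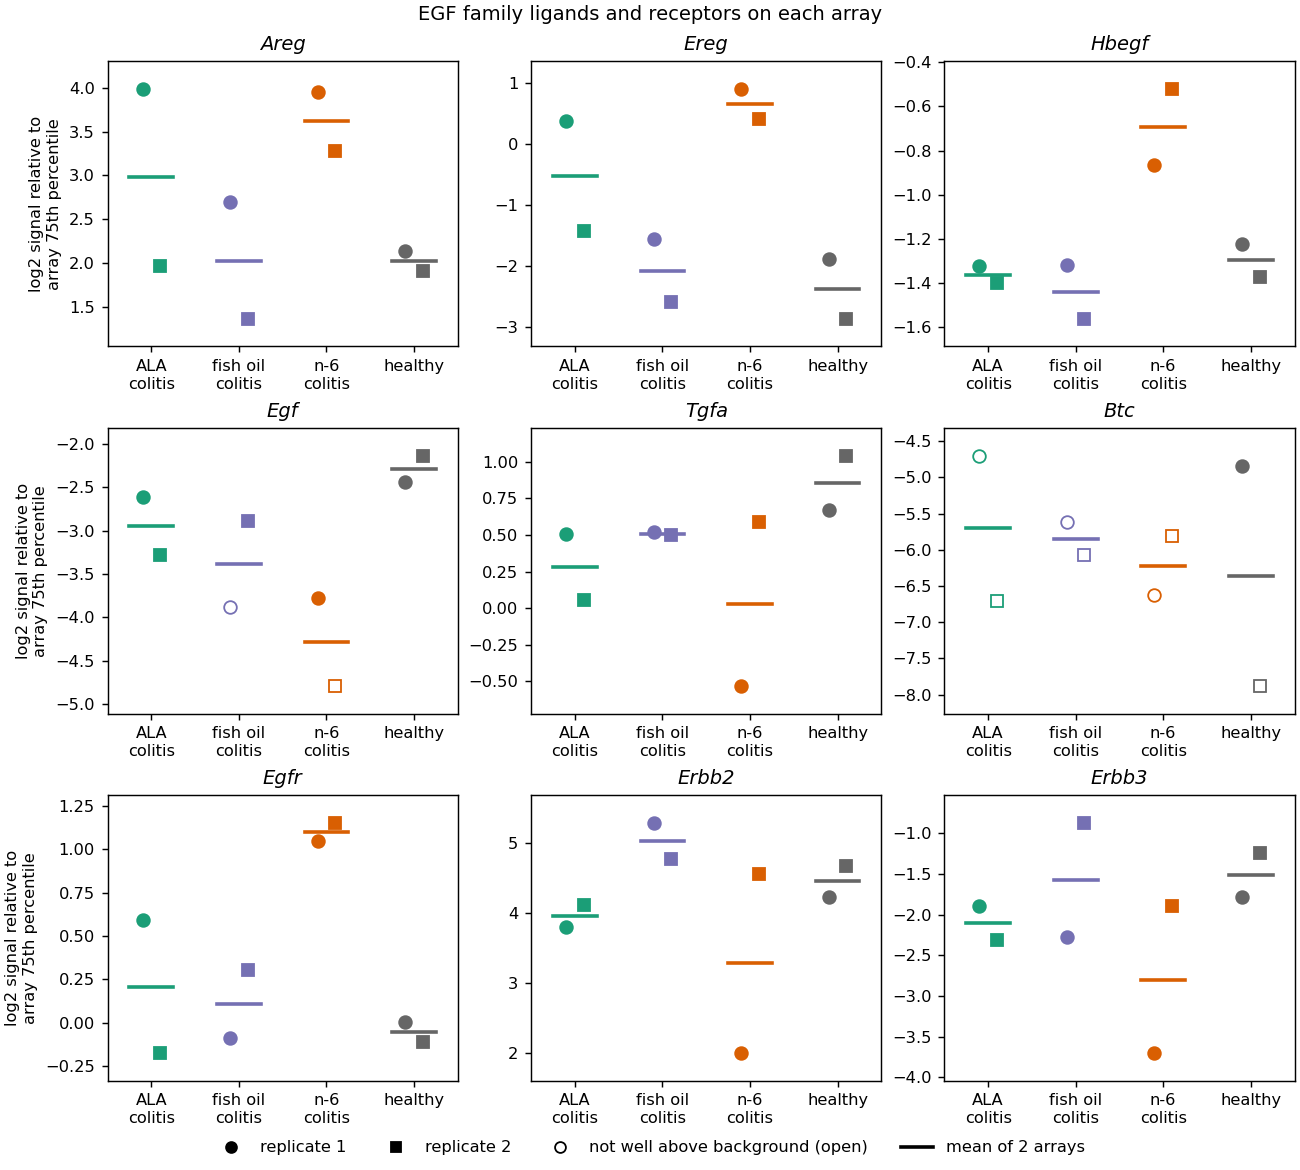
Level of each family member on each array, as log2 signal relative to the array's 75th percentile (y axis), by group (x axis); circles are replicate 1, squares replicate 2, bars the mean of 2 arrays, and open symbols signals not well above background. Ereg, Hbegf and Egfr are highest on both n-6 arrays, and Erbb2 and Erbb3 are lowest on n-6 replicate 1.

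Among the ligands, Areg (amphiregulin), an EGFR ligand of wound repair, stood at 3.96 and 3.28 on the n-6 arrays, against 2.14 and 1.91 on the healthy arrays. It was 3.99 and 1.96 in ALA colitis and 2.69 and 1.36 in fish oil colitis. The n-6 arrays did not overlap the healthy ones, but the 2 ALA arrays lay 2.03 apart, wider than any difference between group means. The difference was 1.60 in n-6 colitis minus healthy (SE 0.73, adjusted p = 0.384 by limma). Fish oil colitis minus n-6 colitis gave -1.60 (SE 0.73, adjusted p = 0.428 by limma), and -0.93 without fish oil replicate 2. On an array the spots of this probe, 8 to 10 of them, had an SD of 0.0097 to 0.056, so the spread between arrays is far above that between spots. ALA replicate 1 decided the ALA values: ALA minus healthy was 0.95 with both arrays and -0.062 without that one, ALA minus fish oil was 0.95 and -0.064, and without ALA replicate 2, ALA minus n-6 turned to 0.37 from -0.64. That array also had a squamous marker sum of 2.73, against 0.57 to 0.901 on the others. Of the 7 squamous markers on the array, Krt5, Krt13 and Dsg3 were well above background on no array. The high sum rests on Krt15, above the 75th percentile on ALA replicate 1 and at -2.91 or lower on the others, while Krt14 was at its lowest there, at -4.22. Over the 8 arrays Areg followed the squamous sum with r = 0.677. It followed the neutrophil sum with r = 0.795, macrophage 0.785 and fibroblast 0.759. Neutrophil markers summed to 1.41 on ALA replicate 1 and 0.449 on ALA replicate 2. Of the 6 neutrophil markers, Cxcr2 and Elane were well above background on no array. What part these cells or Krt15-bearing tissue have in the Areg value was not tested.

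Ereg, an EGFR and ERBB4 ligand, read 0.90 and 0.40 on the n-6 arrays, against -1.89 and -2.86 on the healthy arrays. It read 0.37 and -1.43 in ALA colitis and -1.56 and -2.59 in fish oil colitis. Both n-6 arrays were above all others, and both ALA arrays were above both healthy ones, while fish oil and healthy arrays overlapped. The n-6 minus healthy difference was 3.03 (SE 0.68, 95% interval 1.42 to 4.64), or 8.16-fold. Its unadjusted p was 0.00295 and its adjusted p = 0.166 by limma. Of all genes, 1.76% had a lower p. ALA minus healthy gave 1.84 (SE 0.68, unadjusted p = 0.0301 and adjusted p = 0.731 by limma), the single member with an unadjusted p under 0.05 there, where 6.54% of genes had one. Without ALA replicate 1 it was 0.95, and 0 members had an unadjusted p under 0.05 there by limma. Fish oil minus n-6 gave -2.73 (SE 0.68, unadjusted p = 0.00511 and adjusted p = 0.410 by limma). The macrophage, fibroblast and red cell sums given above were also highest on the n-6 arrays, and their part in the Ereg level was not tested.

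Areg and Ereg ran alike over the 8 arrays, with r = 0.934, a description over arrays that share rats and 1 slide. Such a value is not unusual here: over 10265 genes well above background on all arrays, the median of a gene's highest r was 0.977. The same 3 arrays, both n-6 and ALA replicate 1, were the highest for both genes. The genes are neighbours on chromosome 14, 45843 bases apart in the RefSeq table of build GRCr8, and Btc and Epgn lie beside them. Of the 9 members, 7 have a promoter in that table, and Ereg and Erbb3 are not among them. The Areg promoter is printed because Areg ran with Ereg, and shared control of these genes was not tested. It holds the 250 bases before the start, chr14:17265642-17265891 of GRCr8 on the minus strand, from RefSeq.
Areg promoter: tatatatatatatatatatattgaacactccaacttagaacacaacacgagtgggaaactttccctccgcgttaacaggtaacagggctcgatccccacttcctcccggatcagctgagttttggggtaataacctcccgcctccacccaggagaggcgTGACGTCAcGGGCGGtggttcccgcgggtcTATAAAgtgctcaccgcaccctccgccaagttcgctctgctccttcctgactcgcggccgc
Capitals mark letters found by search on both strands: TGACGTCA, the cAMP response element, at -91, the GC box GGGCGG at -82 and TATAAA at -61, counted from the gene start. None overlaps another. TGACGTCA stands in 1.59% of 33469 promoters of this length, GGGCGG in 30.5% and TATAAA in 12.9%. The AP-1 letters TGANTCA, found in 6.34% of promoters, are not in this window. These are matches of letters, and no binding was measured.

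**Figure D2:**
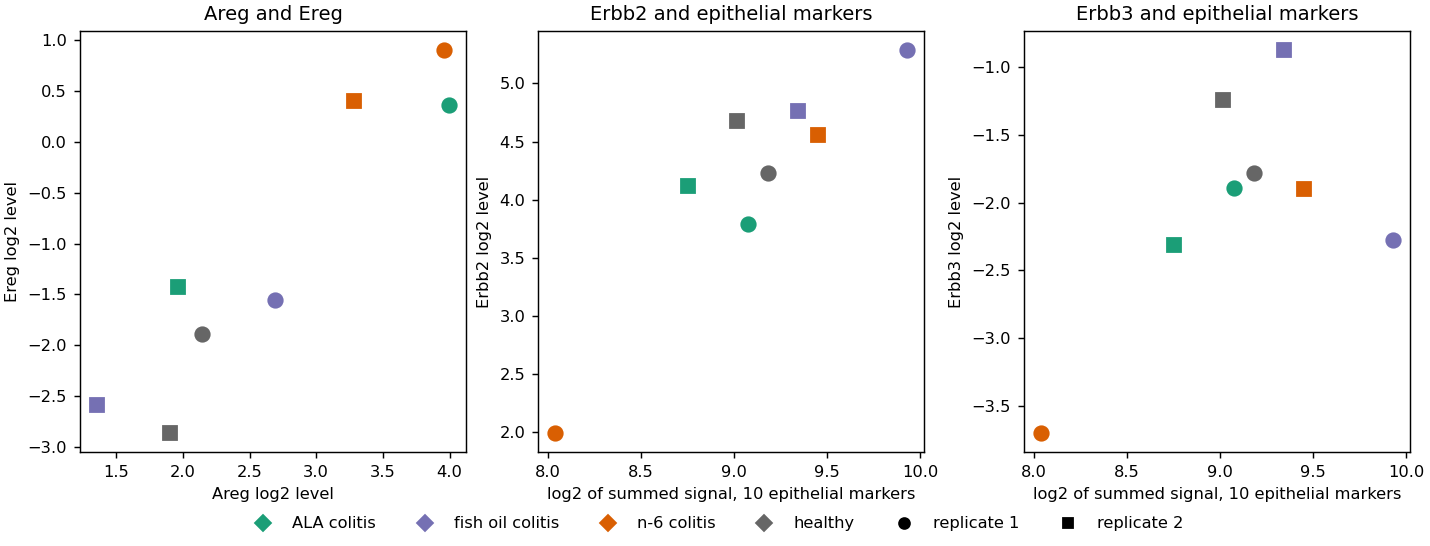
The 8 arrays by log2 level of Areg (x) and Ereg (y) on the left, and by the log2 of the summed signal of 10 epithelial markers (x) against Erbb2 and Erbb3 (y) in the middle and on the right; colours are groups, circles replicate 1 and squares replicate 2. Areg and Ereg levels rise together over the arrays (Pearson r = 0.934), and n-6 replicate 1 is lowest for the epithelial markers and both receptors.

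Hbegf, a heparin-binding EGFR ligand, stood at -0.87 and -0.52 on the n-6 arrays, against -1.22 and -1.37 on the healthy arrays. It was -1.32 and -1.40 in ALA colitis and -1.32 and -1.56 in fish oil colitis. Only the n-6 arrays stood apart, and the 3 other groups did not differ beyond their spread. The n-6 minus healthy difference was 0.61 (SE 0.29, adjusted p = 0.408 by limma), and fish oil minus n-6 was -0.75 (SE 0.29, adjusted p = 0.410 by limma), or -0.39 with normexp background correction.

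Egf, the ligand that names the family, was dim, at -3.77 and -4.79 on the n-6 arrays, against -2.44 and -2.14 on the healthy arrays. ALA arrays had -2.61 and -3.28 and fish oil arrays -3.88 and -2.89. Both healthy arrays were above every colitis array. The probe was not well above background on n-6 replicate 2 and fish oil replicate 1. It passed the filter on dim probes only through the healthy and ALA groups. Its spots, 8 to 10 on an array, had an SD of 0.063 to 0.52, the widest on n-6 replicate 2. The Egf difference was -1.99 for n-6 minus healthy (SE 0.50, unadjusted p = 0.00544 and adjusted p = 0.190 by limma). ALA minus n-6 gave 1.33 (SE 0.50, unadjusted p = 0.0330 and adjusted p = 0.841 by limma). With normexp background correction, Egf gave -0.60 for n-6 minus healthy (unadjusted p = 0.0882 by limma) and 0.37 for ALA minus n-6. With the authors' deposited table these were -1.22 and 0.79, and ALA minus n-6 was 0.82 without n-6 replicate 2. The second Egf probe was well above background on 2 arrays and did not follow the first.

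Tgfa, an EGFR ligand of the gut surface epithelium, read -0.53 and 0.59 on the n-6 arrays, against 0.67 and 1.04 on the healthy arrays. It read 0.51 and 0.05 in ALA colitis and 0.52 and 0.50 in fish oil colitis. Healthy arrays were again above every colitis array, and the 3 colitis groups overlapped. The mean over the 3 colitis groups minus healthy was -0.58 (SE 0.35, adjusted p = 0.746 by limma). It was -0.35 with the authors' deposited table and -0.30 with probes averaged per gene. The 2 Tgfa probes disagreed, although both were well above background on all 8 arrays. The dimmer gave -0.022 for that comparison, with fish oil replicate 1 at -0.90 above the healthy arrays at -1.62 and -2.32. In fish oil minus healthy the brighter gave -0.35 and the dimmer 0.52.

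Btc (betacellulin) was well above background on 1 of 8 arrays, healthy replicate 1. It read -6.63 and -5.81 on the n-6 arrays, -4.70 and -6.70 in ALA colitis and -5.62 and -6.08 in fish oil colitis, against -4.84 and -7.88 on the healthy arrays. These values have no order, and no fold is given. Without the filter on dim probes its adjusted p was 0.981 in n-6 against healthy by limma.

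**Figure D3:**
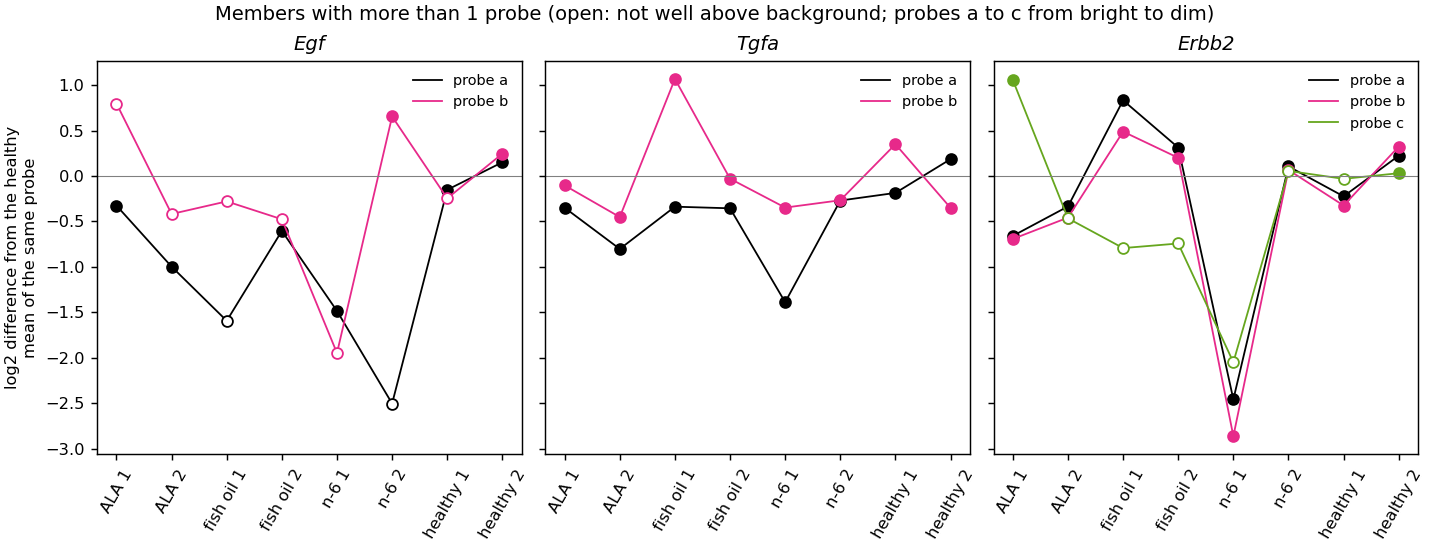
Log2 difference of each probe from its own healthy mean (y axis) on the 8 arrays (x axis) for the 3 members with more than 1 probe; open points are not well above background. The 2 brighter Erbb2 probes follow each other with their lowest value on n-6 replicate 1, while the probes of Egf and Tgfa part.

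Among the receptors, Egfr, which binds all 6 ligands listed here, stood at 1.05 and 1.15 on the n-6 arrays, against 0.0043 and -0.11 on the healthy arrays. ALA arrays had 0.59 and -0.17, and fish oil arrays -0.09 and 0.30. The n-6 arrays were above all others, and the other 3 groups overlapped. The difference was 1.15 in n-6 colitis minus healthy (SE 0.35, 95% interval 0.32 to 1.99), or 2.22-fold, with unadjusted p = 0.0139 and adjusted p = 0.236 by limma. ALA minus n-6 gave -0.89 (SE 0.35, adjusted p = 0.841 by limma), or -0.51 without ALA replicate 2, and fish oil minus n-6 gave -0.99 (SE 0.35, adjusted p = 0.410 by limma). Over the 8 arrays Egfr followed the summed red cell markers with r = 0.890 and the fibroblast markers with r = 0.808, whose part in its level was not tested.

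Erbb2 (HER2), the partner receptor, read 1.99 and 4.56 on the n-6 arrays, against 4.23 and 4.68 on the healthy arrays. It read 3.79 and 4.12 in ALA colitis and 5.28 and 4.76 in fish oil colitis. A single array, n-6 replicate 1, stood far below the rest, and the second bright probe was also lowest there, at -1.03. The n-6 minus healthy difference was -1.18 (SE 0.76, adjusted p = 0.539 by limma) and turned to 0.11 without that array. Fish oil minus n-6 gave 1.75 (SE 0.76, adjusted p = 0.418 by limma) and 0.47 without it, and ALA minus n-6 gave 0.68 and -0.60 without it. The epithelial markers summed to 263 on that array, against 431 to 973 on the others. Erbb2 followed their sum with r = 0.915 over the 8 arrays, where the median of a gene's highest r was 0.977. The sum rests mostly on Krt20 and Lgals4, the brightest of the list on every array. All markers of the list were lowest on n-6 replicate 1, but unevenly. Cdh1 read 5.02 there, against 5.27 to 6.19 on the others, and Cdx2 0.81, against 3.11 to 6.09. What part the epithelial content has in the Erbb2 values was not tested.

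Erbb3, the neuregulin receptor, read -3.70 and -1.90 on the n-6 arrays, against -1.78 and -1.24 on the healthy arrays. ALA arrays had -1.89 and -2.31 and fish oil arrays -2.27 and -0.88. The n-6 minus healthy difference was -1.29 (SE 0.69, adjusted p = 0.453 by limma). Leaving out n-6 replicate 1 gave -0.39 and leaving out n-6 replicate 2 gave -2.19, and normexp background correction gave -0.59. ALA minus n-6 was 0.70 (SE 0.69, adjusted p = 0.965 by limma) and -0.20 without n-6 replicate 1. ALA minus fish oil, at -0.53, turned to 0.17 without fish oil replicate 2. Erbb3 followed Tgfa with r = 0.849 over the 8 arrays.

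**Figure D4:**
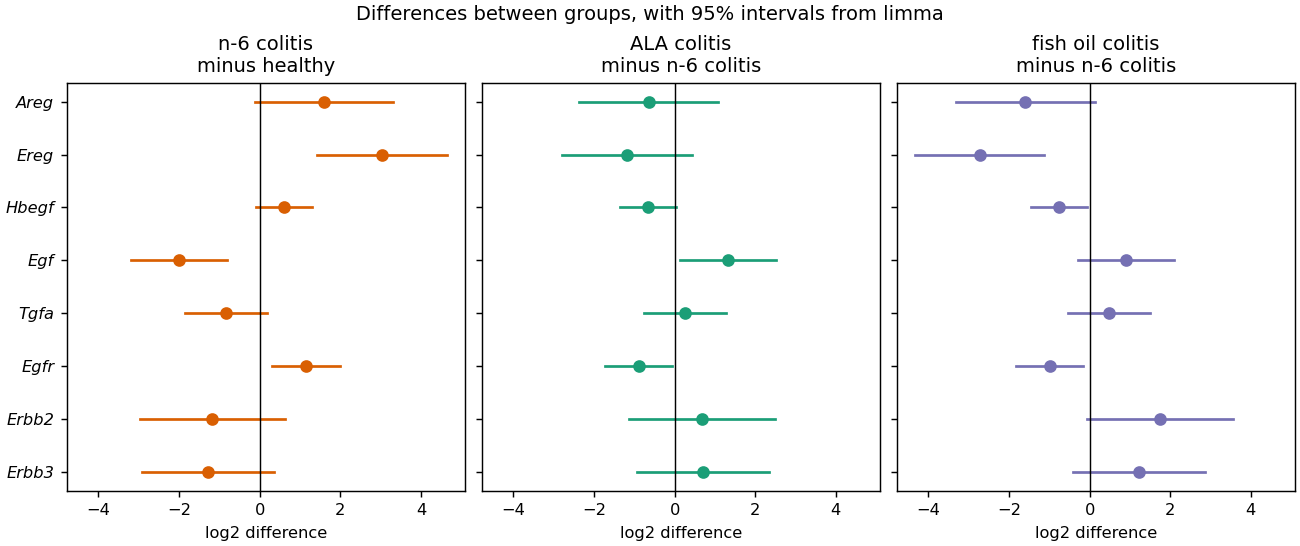
Log2 difference (x axis) with its 95% interval from limma for the 8 tested members (y axis), in n-6 colitis minus healthy, ALA colitis minus n-6 colitis and fish oil colitis minus n-6 colitis. The widest difference is Ereg in n-6 colitis minus healthy (3.03), and no member passed the adjusted threshold.

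In the diet comparisons that the study set against the n-6 group, the members' counts stood above the background without any passing. These counts rest on only 8 members, read against the same n-6 arrays. In fish oil against n-6 colitis, 3 of 8 members, Ereg, Hbegf and Egfr, had an unadjusted p under 0.05, all lower with fish oil, where 12% of genes had one. Arrays did not overlap for 5 members there, against 46.6% of genes, and 0.0385% of genes passed the adjusted threshold. In ALA against n-6 colitis, 2 members, Egf and Egfr, had an unadjusted p under 0.05, against 5.79% of genes. Egf passed the filter on dim probes only through the healthy and ALA groups, so its place in these counts is no support. Arrays did not overlap for 4 members, against 30% of genes, and 0.0275% of genes passed the adjusted threshold. In ALA against fish oil colitis the members' counts were not above the background. There, 0 members had an unadjusted p under 0.05 by limma (9.6% of genes did), 2 did not overlap (45.7%), and 0% of genes passed. Both n-3 comparisons use the same n-6 arrays, so they are no independent sightings of each other.

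Against healthy colon, 5 members of ALA colitis did not overlap (40.6% of genes), 1 higher and 4 lower. In fish oil colitis 3 did not overlap (38.8%), and 0 had an unadjusted p under 0.05 by limma, against 3.9% of genes. For the 3 colitis groups together, 2 members, Egf and Tgfa, lay below healthy colon on all arrays (10.3% of genes did not overlap), and 2 members, Ereg and Egf, had an unadjusted p under 0.05 (8.02%). In each of these 3 comparisons 0% of genes passed the adjusted threshold. Egf, which is in the non-overlap count of each, passed the filter on dim probes only through the healthy and ALA groups.

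Of the rest of the pathway, 1 gene of 47 tested passed in any of the comparisons. It was Fosl1, an AP-1 transcription factor induced by ERK, at -1.34 and -1.31 on the n-6 arrays, against -5.28 and -4.71 on the healthy arrays. It rose by 3.67 in n-6 colitis (SE 0.35, adjusted p = 0.0401 by limma), and this call was lost in 14 of 17 alternative settings, including leaving out any single array. Its probe was not well above background on healthy replicate 1 and fish oil replicate 1. In ALA colitis Fosl1 read -3.68 and -3.85 and in fish oil colitis -3.65 and -4.26. Of the 12 ERK-responsive genes, 10 had a positive and 2 a negative difference in n-6 minus healthy, with a median of 0.79 against 0.026 for all genes. The negative ones were Ccnd1 (cyclin D1), at -2.62 (adjusted p = 0.216 by limma) and -1.34 without n-6 replicate 1, and the transcription factor Etv5, at -1.46 (adjusted p = 0.384 by limma). In fish oil minus n-6 the same list had 1 positive and 11 negative differences, with a median of -0.70 against 0.0083 for all genes. In ALA minus n-6 it had 2 and 10, with a median of -0.54 against 0.072. At an unadjusted p under 0.05 by limma, 2 were higher and 1 lower in n-6 against healthy, where 14.3% of genes had one. Against n-6 colitis, 1 was higher and 2 lower with fish oil (12% of genes), and 1 lower with ALA (5.79%). Both diet comparisons share the n-6 arrays with n-6 minus healthy, so the signs are no independent sightings. The list was not tested as a set.

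Of the 11 feedback inhibitors tested of 13 listed, 0 passed by limma. In n-6 against healthy, 2 were higher at an unadjusted p under 0.05, Spry1 and Cblb, and 1 lower, Lrig1, against 14.3% of all genes. The ERK inhibitor Spry1 read 1.03 and 0.70 on the n-6 arrays, against -1.11 and -1.01 on the healthy arrays, a difference of 1.93 (SE 0.41, unadjusted p = 0.00224 and adjusted p = 0.154 by limma). Lrig1, which promotes breakdown of ErbB receptors, differed by -0.91 in n-6 minus healthy (adjusted p = 0.294 by limma). It differed by -0.90 in ALA minus healthy and 0.30 in fish oil minus healthy. Of the sheddases and their regulators, 6 of 8 were tested and 0 passed by limma, with 1 at an unadjusted p under 0.05 in n-6 against healthy, near the 14.3% of all genes. That was the protease Adam9, at 0.17 and -1.26 on the n-6 arrays, against -2.33 and -2.65 on the healthy arrays. Adam17, the main sheddase of several but not all of these ligands, differed by -0.62 (SE 0.45, adjusted p = 0.577 by limma). Adam10, another sheddase, differed by -0.17 (SE 0.39, adjusted p = 0.889 by limma). The 16 adaptors and kinases had 6 positive and 10 negative differences, with a median of -0.21 in n-6 minus healthy. Of them 3 had an unadjusted p under 0.05, near the 14.3% of all genes. Of 6 other ErbB genes, which are ligands and the receptor Erbb4, 2 were tested and 0 passed by limma, and Nrg1 (neuregulin 1, an ERBB3 ligand) differed by 1.03 (SE 0.45, adjusted p = 0.369 by limma).

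**Figure D5:**
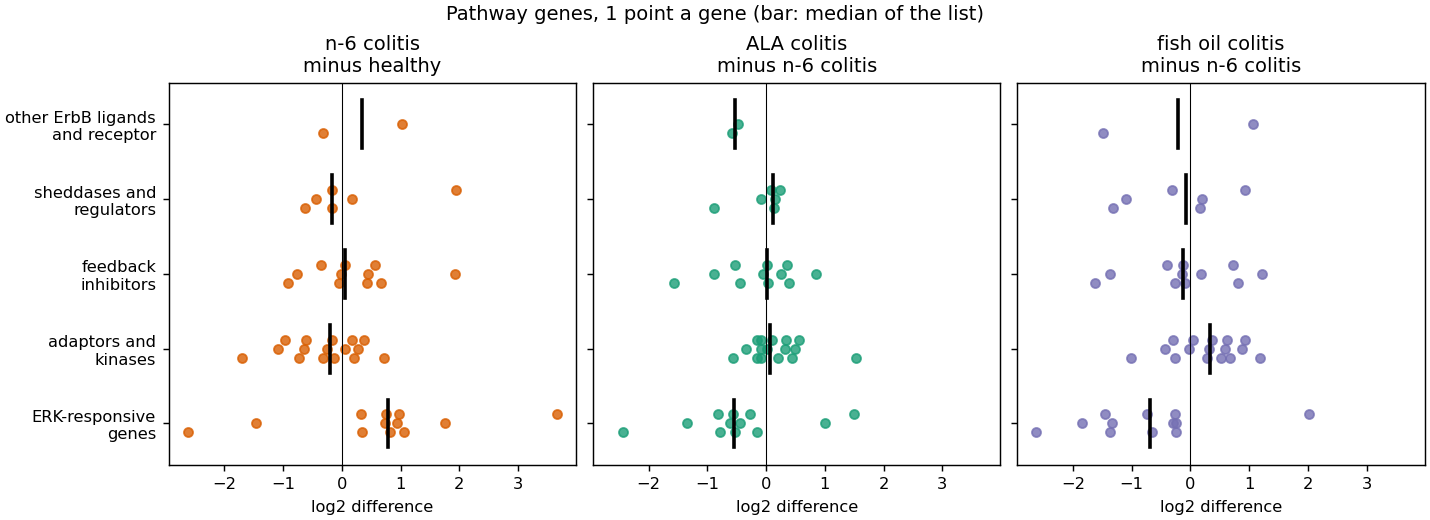
Log2 differences of the tested pathway genes (x axis, 1 point a gene) by list (y axis), in n-6 colitis minus healthy, ALA colitis minus n-6 colitis and fish oil colitis minus n-6 colitis; bars are list medians. ERK-responsive genes have medians of 0.79, -0.54 and -0.70.

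Genes of most similar pattern were sought for the 7 members well above background on all 8 arrays, as the 3 with the highest Pearson r among 10264 genes. With 8 arrays such values come easily: the median over all genes of the third-highest r was 0.962. For Areg these were Lamb1, Kdm5a and Rabl2 (r = 0.958, 0.953 and 0.950). For Ereg they were Runx1, Ercc1 and Arfrp1 (r = 0.985, 0.975 and 0.975), and for Hbegf Ppp1r36, Ppt1 and Eif4e3 (r = 0.939, 0.938 and 0.934). Tgfa was nearest to Afdn, Clybl and Ildr1 (r = 0.989, 0.975 and 0.975). Egfr was nearest to Nnmt (r = 0.979). Erbb2 was nearest to Card19, Fbxo25 and Adap1 (r = 0.991, 0.989 and 0.988), and Erbb3 to Pyroxd2, Urgcp and Plch1 (r = 0.979, 0.977 and 0.964).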

How the data were processed

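Per the file headers, the spot intensity values come from Feature Extraction 11.5.1.1, with background subtracted and no scaling from array to array. The authors' deposited table of log2 values served as an alternative. Control and outlier spots were left out and repeated spots averaged. The processed signal was divided by its array's 75th percentile and put on a log2 scale. Probes had to be well above background on both arrays of some group (20801 of 30367 were), and the brightest probe stood for a gene, which left 18175 genes. All 8 arrays were fitted together in limma 3.58.1 (R 4.3.3), without covariates, with Benjamini-Hochberg adjustment over all genes at a threshold of 0.05; the test was tried on simulated data. Probes were named through RefSeq (GRCr8); positions are the files' rn4. The labels' titles gave the groups, though a description line of the colitis samples also says healthy. All members are named, with up to 4 genes a pathway list by size of difference over all colitis groups, and for each bright member the 3 genes of most similar pattern, of which some are not reported here. Members and lists were chosen with earlier results of these data known. Alternatives covered scaling, background, filter, probes per gene, variance model, replicate block and leaving out each array.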

Additional observations from a re-analysis of the deposited data

How the results depend on the processing

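The count of members past the adjusted threshold was 0 in all 125 alternative counts by limma, with a lowest member adjusted p of 0.0549. Members with an unadjusted p under 0.05 ran from 2 to 6 in n-6 against healthy. Of 993 member differences under alternatives, 958 kept direction and side of the threshold and 35 turned direction; the cause was not tested. With normexp background correction, Hbegf turned to 0.016 in ALA minus healthy and -0.082 in ALA minus fish oil, Egf to -0.24 in ALA minus fish oil, and fish oil minus healthy to -0.15 for Areg, 0.098 for Hbegf, 0.011 for Egf and 0.30 for Erbb3. Areg in fish oil minus healthy turned to -0.083 with quantile normalization. With the deposited value table it was -0.069, Tgfa there 0.017, and Erbb2 in all colitis minus healthy 0.20. Tgfa in fish oil minus healthy was 0.087 with probes averaged per gene. Leaving out 1 array gave these ranges. In ALA minus healthy they were -0.14 to 0.011 for Hbegf, -0.062 to 1.97 for Areg and -0.12 to 0.64 for Egfr. In fish oil minus healthy they were -0.67 to 0.67 for Areg, -0.21 to 0.82 for Ereg, -0.76 to 0.64 for Erbb3 and -0.033 to 0.36 for Egfr. In ALA minus fish oil they were -0.064 to 1.97 for Areg, -0.28 to 0.48 for Egfr, -0.057 to 0.93 for Egf, -0.045 to 0.20 for Hbegf and -1.23 to 0.17 for Erbb3. In ALA minus n-6 they were -1.66 to 0.37 for Areg, -0.31 to 0.81 for Tgfa, -0.60 to 1.96 for Erbb2 and -0.20 to 1.60 for Erbb3. In n-6 minus healthy Erbb2 ran from -2.46 to 0.11, in all colitis minus healthy from -0.79 to 0.061, and in fish oil minus n-6 Tgfa from -0.076 to 1.04. Counts over all genes in n-6 against healthy ran from 0 to 67 (normexp), against 7 in the fit reported. They were 0 without either healthy array, either fish oil array or n-6 replicate 1, and with only the groups compared. In ALA against n-6 they ran from 0 to 6 (5 reported) and in fish oil against n-6 from 0 to 8 (7 reported). Fosl1 in n-6 minus healthy ran from 1.62 to 3.95, with adjusted p from 0.0319 to 0.348 by limma. Ccnd1 was -1.34 without n-6 replicate 1 and passed without n-6 replicate 2 (-3.89, adjusted p = 0.0492 by limma). With the replicate block, 0 members passed in any comparison, and genes passing were 13 against 7 in n-6 against healthy, 0 against 5 in ALA against n-6 and 5 against 7 in fish oil against n-6. Deviations of same-numbered arrays correlated between -0.17 and 0.47. Not every array correlated best with its own number, and only fish oil replicate 1 did so with its own group. Dim signal limits Egf and Btc most.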
